A study of Mus musculus with 6 samples.

Results

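Expression of 7 ion pump genes was described in the aging mouse cortex: Atp2b1, Atp2b2, Atp2b3 and Atp2b4, which encode the plasma membrane calcium pumps, Atp2a2, and the sodium pump subunits Atp1b1 and Atp1b2. They were found by gene symbol, and each of the 7 symbols matched 1 of the 55421 gene rows. All 7 were among the 32905 genes that entered the test. RNA-seq had been performed on microdissected cerebral cortex of wild-type male C57BL/6J mice, 3 of 6 months (mice 10, 11 and 17) and 3 of 24 months (mice 2, 4 and 5). All 6 mice had a standard diet and were killed by cervical dislocation under isoflurane, and each library came from 10 ng of total RNA of 1 mouse. The comparison asks how the transcript level of each pump differed between young and old adults. The name plasma membrane pumps does not cover the whole set: Atp2a2 encodes SERCA2, the calcium pump of the endoplasmic reticulum, and the Atp1b genes encode beta subunits, which carry no catalytic site.

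Plasma membrane calcium pumps (PMCA) use ATP to expel calcium from the cell and are stimulated by calmodulin, which lets them return cytosolic calcium to rest after a signal. Atp2b1 and Atp2b4 are expressed in many tissues, whereas Atp2b2 and Atp2b3 are found mainly in brain and a few other excitable or sensory tissues. The sodium pump exports sodium and imports potassium, and it sets the gradients on which neuronal excitability and sodium/calcium exchange depend. Its catalytic alpha subunit needs a beta subunit to fold and reach the membrane, and Atp1b2 is known as a glial adhesion molecule (AMOG) as well. SERCA2 refills the calcium store of the endoplasmic reticulum.

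Sequencing depth ranged from 29495379 to 36494240 counts per mouse. More genes had at least 1 count at 24 months (40208 to 43561) than at 6 months (33974 to 35651). At a false discovery rate (FDR) of 1%, the level used by the study, the quasi-likelihood test of edgeR called 0 of 32905 genes, of which 10097 had an unadjusted p under 0.05. The study, with edgeR and its own filter, did report differentially expressed genes at 1% FDR. The 0 therefore holds for the test and filter used here. Other tests on the same counts called 1703 (likelihood ratio), 1111 (exact test of edgeR) and 227 (DESeq2) genes at that level. A gene is therefore said here to have risen or fallen when its FDR in the quasi-likelihood test was at most 10%. The test scales the libraries by TMM (trimmed mean of M-values), and on that scale the median log2 fold change was -0.20 over the 10028 genes with a mean of at least 10 CPM (counts scaled to library size) and 0.15 over all genes tested. With library totals as the only scaling these medians were -0.01 and 0.34, so the fold changes below depend on the scaling and need these medians beside them.

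The pump transcripts spanned a wide range of levels, compared between genes in TPM (counts scaled by exonic length and library size). Mean TPM at 6 months decreased in the order Atp1b1, Atp1b2, Atp2b1, Atp2b2, Atp2a2, Atp2b4, Atp2b3, and the order was the same at 24 months. Atp1b1 was the highest, ranking 29 of all genes by mean TPM over the 6 mice, and its mean was 89.3 times that of Atp2b3 at 6 months and 110.5 times at 24 months. The ranges of neighbouring genes in this order did not overlap at 6 months, although the lowest Atp2b4 value and the highest Atp2b3 value were both 28.2 TPM. At 24 months the ranges of Atp2b2 and Atp2a2 overlapped, and those of the other neighbours did not.

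Sequences upstream of the gene starts are shown with their base composition and a common promoter motif. A RefSeq start with an upstream window free of annotated exons was found for 4 of them in GRCm38.p6, and the 240 bases printed 5′ to 3′ end shortly before that start. They lie at chr10:98914902-98915141 on the plus strand for Atp2b1, and on the minus strand at chr6:113934692-113934931 for Atp2b2, chr1:133753758-133753997 for Atp2b4 and chr1:164458366-164458605 for Atp1b1. The Atp1b1 window lies upstream of the annotated gene, and the other 3 lie in introns of longer annotated transcripts. Capitals mark the GC box GGGCGG on either strand. The RefSeq table lists 2 starts for Atp2b1 and 3 for Atp2b2, of which the outermost with an exon-free window is shown, so the values hold for these windows and not for every start of a gene.
Atp2b1: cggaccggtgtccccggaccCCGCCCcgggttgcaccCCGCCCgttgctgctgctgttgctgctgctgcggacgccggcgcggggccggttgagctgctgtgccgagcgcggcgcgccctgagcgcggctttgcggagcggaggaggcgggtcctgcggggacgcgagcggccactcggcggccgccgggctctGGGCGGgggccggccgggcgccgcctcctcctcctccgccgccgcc
Atp2b2: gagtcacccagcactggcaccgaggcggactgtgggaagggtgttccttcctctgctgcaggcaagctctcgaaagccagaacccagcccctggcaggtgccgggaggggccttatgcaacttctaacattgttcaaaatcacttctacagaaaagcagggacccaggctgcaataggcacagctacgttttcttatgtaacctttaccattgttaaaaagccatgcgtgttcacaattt
Atp2b4: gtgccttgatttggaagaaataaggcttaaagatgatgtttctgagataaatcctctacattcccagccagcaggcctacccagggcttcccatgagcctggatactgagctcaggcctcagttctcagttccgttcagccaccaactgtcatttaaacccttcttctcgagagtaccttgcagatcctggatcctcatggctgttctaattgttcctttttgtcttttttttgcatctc
Atp1b1: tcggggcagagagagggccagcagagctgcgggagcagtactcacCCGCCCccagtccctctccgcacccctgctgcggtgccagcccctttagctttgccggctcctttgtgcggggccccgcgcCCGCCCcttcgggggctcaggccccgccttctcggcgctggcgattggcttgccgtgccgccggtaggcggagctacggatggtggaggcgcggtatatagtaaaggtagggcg
The Atp2b1 window held 3 GC boxes and 81.2% G or C, and the Atp1b1 window held 2 GC boxes and 70.4% G or C. The Atp2b2 and Atp2b4 windows held 0 GC boxes, with 51.7% and 45.8% G or C. Among 32851 windows of the same length in the RefSeq table, 31.3% held a GC box and the median G or C content was 52.1%. The cyclic AMP response element TGACGTCA (1.4% of windows) and the TATA box TATAAA (12.1%), both searched on both strands, were in 0 of the 4 windows. Matches of the 3 motifs cannot overlap one another.

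Of the 7 pump genes, 4 had lower expression at 24 months at 10% FDR (Atp2b1, Atp2b2, Atp2b3 and Atp1b1) and 0 had higher expression. The other 3, Atp2b4, Atp2a2 and Atp1b2, did not pass the test. Over all genes tested, 18.4% were called by this rule, 8.33% lower and 10.0% higher, but among genes with a mean of at least 10 CPM, as all 7 pumps have, the percentage called lower was 25.4%. The median log2 fold change of the 7 pumps was -0.32, beside -0.20 for the genes of at least 10 CPM. In relation to that -0.20, the log2 fold changes were -0.12 for Atp2b1, -0.28 for Atp2b2, -0.43 for Atp2b3 and -0.12 for Atp1b1. At 1% FDR, 0 of the 7 were called. The 4 calls depended on scaling, filter and mouse. None was kept with library totals only, with TMM factors from genes of at least 10 CPM or with the filterByExpr filter, which called 0.966%, 0.851% and 2.1% of the genes tested as lower. Atp2b2 and Atp2b3 were the pumps called by the exact test of edgeR (5.9% of genes lower) and by DESeq2 (6.29%). The number of pumps called was 0 without 6-month mouse 10, 6-month mouse 11, 24-month mouse 2 or 24-month mouse 4, it was 1 (Atp2b3) without 6-month mouse 17, and it was 6 (all but Atp2b4) without 24-month mouse 5. The latter 2 fits called 3.9% and 11.6% of the genes tested as lower. Without 6-month mouse 10, 6-month mouse 11 or 24-month mouse 4, 0 of all genes tested were called lower. Without 24-month mouse 2, 0.346% of all genes tested were called lower. The log2 fold changes of Atp2b1, Atp2b2, Atp2b3 and Atp1b1 were below 0 in all 14 alternatives, and those of Atp2b4, Atp2a2 and Atp1b2 lay on both sides of 0.

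**Figure D1:**
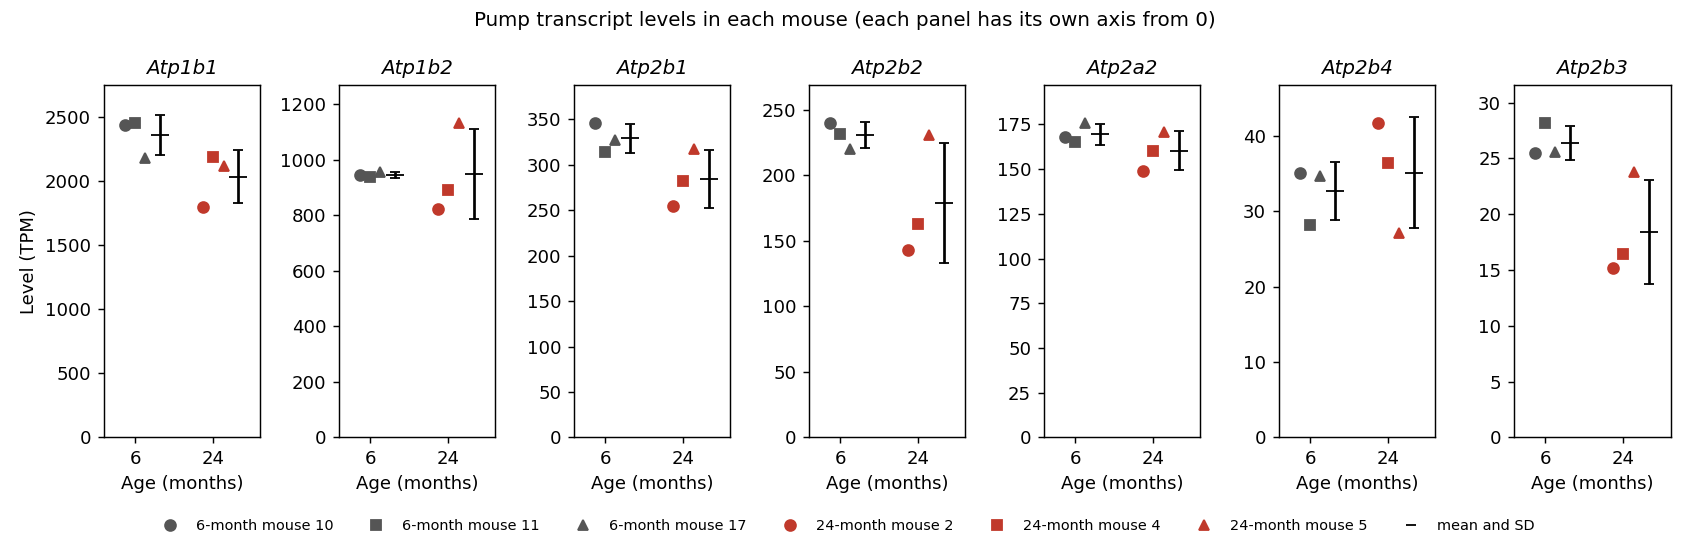
Level (TPM, linear axis from 0 in each panel) of each pump gene in each mouse, with the mean and SD of the 3 mice of an age. Atp2b3 is the panel in which all 24-month mice (at most 23.8 TPM) sit below all 6-month mice (at least 25.5 TPM).

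Atp2b1 encodes PMCA1, the housekeeping calcium pump, and was the most abundant of the Atp2b genes. The gene (ENSMUSG00000019943.10) lies on chromosome 10 from 98914406 to 99026143 (GRCm38). Its level was 346, 314 and 327 TPM in 6-month mice 10, 11 and 17, and 254, 282 and 317 TPM in 24-month mice 2, 4 and 5. The value of mouse 5 lay within the 6-month range, and those of mice 2 and 4 lay below it. Atp2b1 fell with a log2 fold change of -0.32 ± 0.10 (SE; FDR 0.0775), or a ratio of 0.799, on the TMM scale. In TPM, a different scale, its mean was 329 ± 16.1 at 6 months and 284 ± 31.5 at 24 months (SD, n = 3), a log2 ratio of -0.21. Over the alternatives the fold change ran from -0.41 to -0.11 on the log2 scale.

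Atp2b2 encodes PMCA2, a pump with high activity in neurons and hair cells, and ENSMUSG00000030302.16 lies on chromosome 6 from 113743831 to 114042613. It measured 240.3, 232 and 220 TPM in the 6-month mice, and 143, 163 and 231 TPM in 24-month mice 2, 4 and 5. Mice 2 and 4 were well below every 6-month mouse, while mouse 5 was among them. Atp2b2 fell with a log2 fold change of -0.48 ± 0.16 (SE; FDR 0.0831). The SD was 10.2 TPM at 6 months and 45.9 TPM at 24 months, a difference in spread that was not tested. Without mouse 5 the log2 fold change was -0.70, and without mouse 2 it was -0.33.

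Atp2b3 encodes PMCA3, which is restricted largely to brain, and ENSMUSG00000031376.15 lies on chromosome X from 73503086 to 73571005. It was the lowest of the 7, at 25.5, 28.2 and 25.6 TPM in the 6-month mice and 15.2, 16.4 and 23.8 TPM in 24-month mice 2, 4 and 5. The ages did not overlap, which was also so, with 24 months lower, for 8.65% of all genes tested and 24.5% of those of at least 10 CPM. Atp2b3 fell with a log2 fold change of -0.63 ± 0.16 (SE; FDR 0.0587), or a ratio of 0.645, the largest change among the 7. Its fold change was -0.45 with library totals only (FDR 0.101) and was called in 7 of 14 alternatives. The values rest on 622 to 1326 counts per mouse, the fewest of the 7 genes.

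Atp2b4 encodes PMCA4, and ENSMUSG00000026463.17 lies on chromosome 1 from 133699457 to 133801041. It measured 35.1, 28.2 and 34.7 TPM in the 6-month mice, and 41.7, 36.4 and 27.1 TPM in 24-month mice 2, 4 and 5. The order of the old mice was the reverse of that of the other Atp2b genes: mouse 2 was highest and mouse 5 lowest. The log2 fold change was -0.01 ± 0.16 (SE; FDR 0.97), and it was 0.19 with library totals only and 0.15 without mouse 5. No alternative called it.

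**Figure D2:**
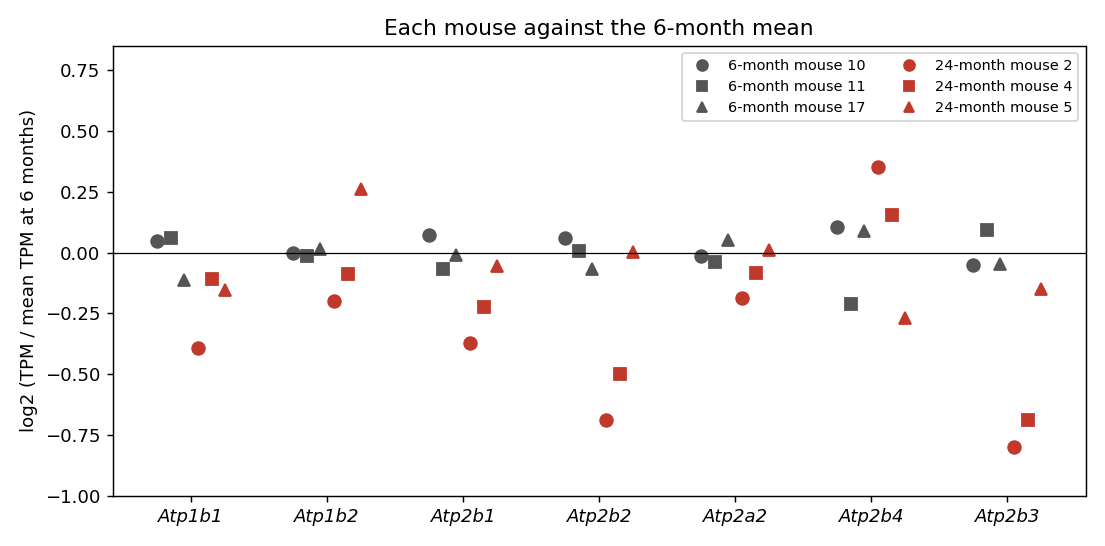
log2 of each mouse's TPM over the 6-month mean of that gene, with gray symbols for 6-month and red symbols for 24-month mice. Mouse 2 lies lowest for 6 of the genes and highest for Atp2b4, and mouse 5 lies close to the 6-month mice for Atp2b1, Atp2b2 and Atp2a2.

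The make-up of the calcium pump transcripts was also compared as the share of each Atp2b gene in their summed TPM within a library, a measure that does not depend on scaling between libraries. The sum itself, which does depend on that scaling, was 647, 603 and 607 TPM in the 6-month mice and 454, 497 and 599 TPM in the 24-month mice. All 3 old mice were below the 3 young ones, with a mean difference of -16.5% (exact two-sided permutation p = 0.1, the smallest that 3 against 3 mice can give). Among single genes of at least 10 CPM, 24.5% were lower at 24 months without overlap. The summed TPM of the Atp1b genes differed by -9.49% (exact permutation p = 0.2) and that of the Atp2a genes by -4.62% (exact permutation p = 0.4). For the Atp1a genes, which encode the alpha subunits, the difference was -12.6% (exact permutation p = 0.3). The Atp2b1 share was 53.2 ± 0.916% at 6 months and 55.2 ± 1.96% at 24 months, and the Atp2b2 share was 37.3 ± 1.16% and 34.3 ± 3.75%. The Atp2b3 share was 4.28 ± 0.372% and 3.53 ± 0.381%, and the Atp2b4 share was 5.27 ± 0.534% and 7.01 ± 2.34% (SD, n = 3). In 24-month mice 2, 4 and 5 the Atp2b4 share was 9.18, 7.32 and 4.53%, so that 2 of the old mice were above every young one (at most 5.72%) and 1 was below. The ranges of the ages overlapped for all 4 shares. The size of these differences depended on single old mice: the Atp2b4 difference of 1.73 percentage points was 0.651 without mouse 2 and 2.97 without mouse 5, and the Atp2b2 difference of -3.04 was -1.66 and -5.17. The Atp2b1 difference of 2.05 was 1.32 without mouse 4 and 3.16 without mouse 5. Over the 7 pump shares, exact permutation p was 0.2 to 0.4 for these 4, and 0.35 to 0.4 after Benjamini-Hochberg adjustment.

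**Figure D3:**
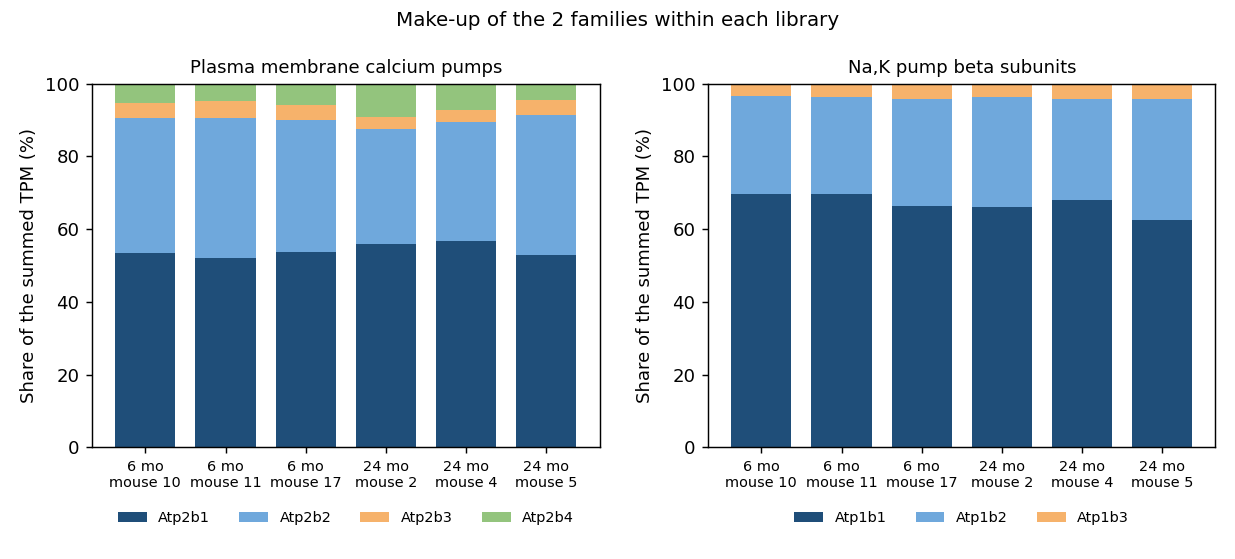
Stacked bars of the percentage of summed TPM taken by each Atp2b gene (left) and each Atp1b gene (right) in each of the 6 mice. Atp2b4 takes 9.18% in 24-month mouse 2 and 4.53% in mouse 5, and Atp1b2 takes 26.6 to 29.2% at 6 months and 27.7 to 33.4% at 24 months.

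Atp2a2, the pump of the endoplasmic reticulum, had the smallest SD of the 7 genes in relation to its mean among the 24-month mice. ENSMUSG00000029467.15 lies on chromosome 5 from 122453513 to 122502225. Its level was 168, 165 and 176 TPM in the 6-month mice, and 149, 160.2 and 171 TPM in 24-month mice 2, 4 and 5. Mice 2 and 4 were below the 6-month range and mouse 5 was inside it. The log2 fold change was -0.20 ± 0.09 (SE; FDR 0.165), close to the median of the genes of at least 10 CPM, and it was 0.01 with TMM factors from those genes. Without mouse 5 it was -0.24 (FDR 0.0916). Among the Atp2a genes, Atp2a2 made up 97.8, 97.9 and 97.8% of the summed TPM at 6 months and 97.2, 97.1 and 96.3% at 24 months. These shares did not overlap, with a mean difference of -0.959 percentage points (exact permutation p = 0.1, adjusted p = 0.35 over the 7 pump shares). The share of Atp2a3, the SERCA3 gene, was 1.85 to 1.98% at 6 months and 2.5 to 3.36% at 24 months. Its mean was 3.29 TPM at 6 months and 4.72 TPM at 24 months, and it did not pass the test (FDR 0.164). The TPM of Atp2a3 was higher at 24 months without overlap, which was also so for 25.8% of all genes tested.

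Atp1b1 encodes the main beta subunit of the neuronal sodium pump, and ENSMUSG00000026576.12 lies on chromosome 1 from 164437109 to 164458355. It measured 2438, 2455 and 2179 TPM in the 6-month mice, and 1796, 2184 and 2120.1 TPM in 24-month mice 2, 4 and 5. Mouse 2 was far below the others, mouse 5 was below the 6-month range and mouse 4 was just inside it. Atp1b1 fell with a log2 fold change of -0.33 ± 0.10 (SE; FDR 0.0764), or a ratio of 0.797, on the TMM scale. In TPM its mean was 2358 ± 155 at 6 months and 2033 ± 208 at 24 months (SD, n = 3), a log2 ratio of -0.21. With library totals only the log2 fold change was -0.14 (FDR 0.344).

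Atp1b2, the AMOG gene (ENSMUSG00000041329.13), lies on chromosome 11 from 69599736 to 69605942. It measured 944, 937 and 956 TPM in the 6-month mice, the narrowest range of the 7 in relation to its mean, and 824, 889.8 and 1134 TPM in 24-month mice 2, 4 and 5. The old mice lay on both sides of the young ones. The log2 fold change was -0.11 ± 0.12 (SE; FDR 0.556), it was 0.08 with library totals only, and it was -0.25 (FDR 0.0719) without mouse 5. Of the summed TPM of the 3 beta subunit genes, Atp1b1 made up 68.6 ± 1.78% at 6 months and 65.5 ± 2.9% at 24 months, and Atp1b2 made up 27.6 ± 1.42% and 30.5 ± 2.81% (SD, n = 3). The ranges overlapped for both (exact permutation p = 0.2, adjusted p = 0.35 over the 7 pump shares). The difference in the Atp1b1 share, -3.1 percentage points, was -1.54 without mouse 5, and that in the Atp1b2 share, 2.89, was 1.45 without mouse 5.

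**Figure D4:**
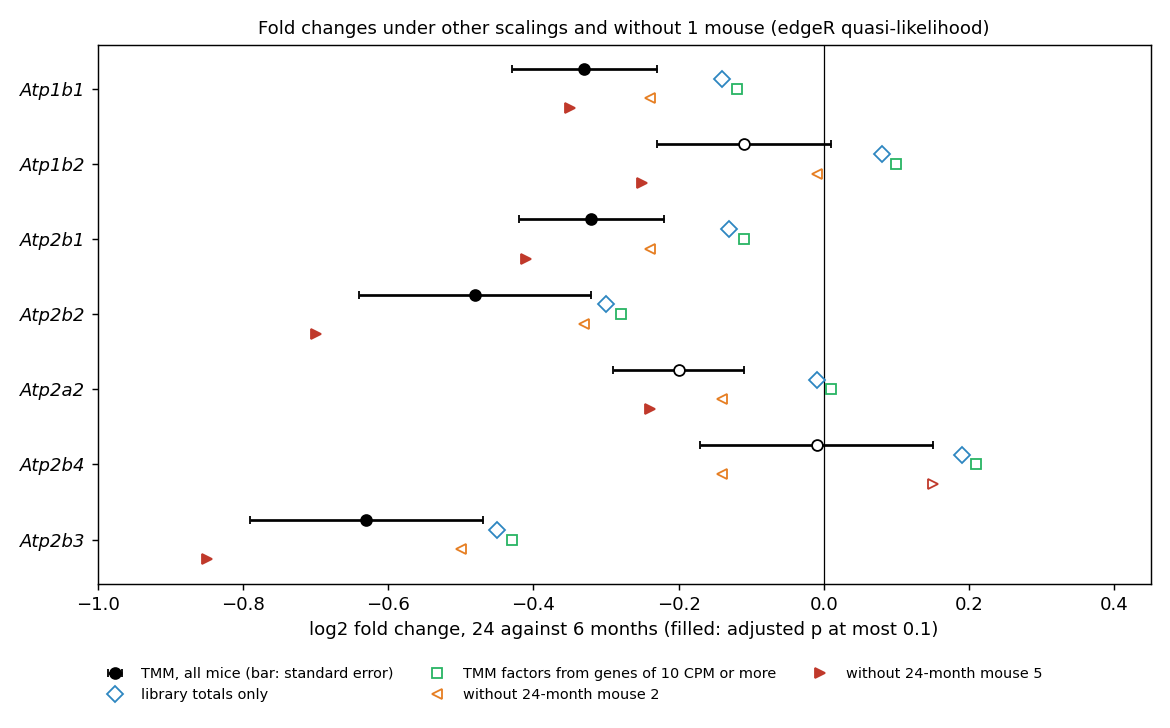
log2 fold change (24 against 6 months) of each pump gene by edgeR under TMM with its standard error, under 2 other scalings, and without 24-month mouse 2 or 5. Filled symbols have FDR of at most 10%: 4 genes with all mice, 6 without mouse 5, and 0 under either other scaling.

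The 24-month mice differed among themselves more than the 6-month mice, in an order that markers of cell types shared in part. The cortex expressed all 7 neuron markers examined (at least 53.1 TPM), and their summed level was 4119 to 4745 TPM at 6 months and 3298, 3788 and 4267 TPM in 24-month mice 2, 4 and 5. This is the order of the old mice for Atp2b1, Atp2b2, Atp2b3, Atp2a2 and Atp1b2. The summed markers of oligodendrocytes, their precursors, microglia, endothelial cells, red blood cells and striatum had this order too, but not those of astrocytes or choroid plexus. Among single neuron markers, Snap25, Syt1, Stmn2, Gad1 and Gad2 had it. Rbfox3 (207, 196 and 219 TPM) and Slc17a7 (153, 147 and 157 TPM) did not. Of the neuron markers, 2 of 7 fell (Syt1 and Stmn2), all 7 had fold changes below 0, and their median log2 fold change was -0.31 (-0.12 with library totals only). Among genes of at least 10 CPM, as all 7 are, 25.4% fell and 0.548% rose. Their median was -0.20 (-0.01 with library totals only). The sum of 6 oligodendrocyte markers was 1357 to 2144 TPM at 6 months and 800.3, 1898 and 2484 TPM in the old mice in the same order, with 0 of 6 called. The sum of 7 astrocyte markers was 2878 to 3068 TPM at 6 months and 3327 to 3476 TPM at 24 months, and 1 of 7, Gfap, rose. Aldoc, with a mean of 1782 TPM at 6 months and 2088 TPM at 24 months, was the largest part of this sum. The astrocyte markers did not share a direction: 4 of 7 had log2 fold changes below 0 (Aqp4 -0.40, Gja1 -0.17, Slc1a3 -0.16 and Aldh1l1 -0.09). The median of the list was -0.09. Striatum markers summed to 134 to 154 TPM at 6 months and 98.3 to 151 TPM at 24 months, and choroid plexus markers to 40.5 to 118 and 53.0 to 121 TPM, with 0 called in either list. Microglia markers summed to 537 to 552 and 571 to 615 TPM, with Tmem119 higher and Csf1r lower, and endothelial markers to 46.5 to 66.0 and 47.9 to 67.6 TPM, with 0 called. Precursors of oligodendrocytes (16.9 to 18.4 and 13.7 to 20.3 TPM) had 0 of 2 markers called, and red blood cells (340.3 to 436 and 274 to 383 TPM) had 1 of 4, Hbb-bt, which fell. No marker of any list was at 0 in a library. Depth had the order of the neuron marker sum in 24-month mice 2, 4 and 5 as well (29495379, 32350231 and 32813159 counts). The number of genes with at least 1 count had the reverse order (43561, 42717 and 40208). The part of the differences in markers, depth or genes detected in the pump values was not tested. In bulk tissue, fewer cells of a type and less RNA per cell cannot be told apart.

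The genes that work with the pumps were summarized over 8 lists with 55 genes in all. Of the 55, 6 fell, 2 rose and 47 did not pass the test, where 8.33% of all genes tested fell and 10.0% rose. Many but not all of the 55 have a mean of at least 10 CPM, and among such genes 25.4% fell and 0.548% rose. Those that fell, except Nkain3, are genes of at least 10 CPM, and those that rose are not. The 55 had a median log2 fold change of -0.10 (0.09 with library totals only). The number called was 0 without 6-month mouse 10 or 11 or 24-month mouse 2 or 4, it was 2 without 6-month mouse 17, and it was 8 without 24-month mouse 5. Of all genes tested, 0 were called without 6-month mouse 10 or 24-month mouse 4, and 1 without 6-month mouse 11. The percentage called was 0.585% without 24-month mouse 2, 7.72% without 6-month mouse 17 and 25.6% without 24-month mouse 5. Among the other sodium pump subunits, Atp1b3, a further beta subunit, had a log2 fold change of -0.17 (FDR 0.405). Atp1a4, the sperm alpha subunit, rose from 2, 7 and 3 counts to 19, 21 and 13 counts (log2 fold change 2.07, FDR 0.0526), which is near the limit of detection, in libraries that detected more genes. Among 9 regulators of the sodium pump, Nkain3 fell (-0.72, FDR 0.0596), a call kept in 6 of 14 alternatives. Its mean was 2.60 TPM at 6 months and 1.71 TPM at 24 months (log2 ratio -0.60). Fxyd7, a brain regulator of the pump, had a log2 fold change of -0.28 (FDR 0.124).

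Of the 4 other intracellular calcium pumps, 1 fell: Atp2c1, the calcium and manganese pump of the Golgi (-0.52 ± 0.10 SE on the TMM scale, FDR 0.0518). Its mean was 94.3 ± 5.69 TPM at 6 months and 71.3 ± 6.19 TPM at 24 months (log2 ratio -0.40). In TPM the ages did not overlap, which was also so, with 24 months lower, for 24.5% of genes of at least 10 CPM. Atp2c1 was called in 10 of 14 alternatives, more than any of the 7 pumps. Among 7 partners of the pumps, the calmodulin gene Calm2 fell (-0.29, FDR 0.0771), a call kept in 1 of 14 alternatives. Its mean was 10017 ± 857 TPM at 6 months and 8840.4 ± 264 TPM at 24 months (log2 ratio -0.18). Bsg and Nptn, which encode the membrane partners basigin and neuroplastin, had log2 fold changes of 0.02 (FDR 0.897) and -0.21 (FDR 0.451). Calm3 (-0.12, FDR 0.345) did not pass.

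Among 9 sodium/calcium exchangers, which also clear calcium, Slc24a4 fell (-0.49, FDR 0.0573) and Slc8b1, the mitochondrial exchanger, rose (0.45, FDR 0.0963). In TPM the mean of Slc8b1 was 5.02 at 6 months and 7.42 at 24 months (log2 ratio 0.56). Slc24a4 was called in 6 of 14 alternatives and was -0.29 with library totals only (FDR 0.153), and Slc8b1 was called in 5 of 14, not including the exact test of edgeR or DESeq2. Of 11 genes of calcium release and store-operated entry, 0 passed the test, with a median log2 fold change of -0.09 (0.10 with library totals only), 8 of them below 0, and 1 with an unadjusted p under 0.05. Of 6 genes of mitochondrial calcium uptake, 0 passed, with a median of -0.14 (0.05 with library totals only), all 6 below 0 and 0 with an unadjusted p under 0.05. Of 4 calcium buffers, Calb1, the gene of calbindin, fell (-0.40, FDR 0.0816). This call was kept in 3 of 14 alternatives, and the log2 fold change was -0.20 with library totals only (FDR 0.345). Pvalb, the gene of parvalbumin, had a log2 fold change of 0.00 (FDR 0.998).

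**Figure D5:**
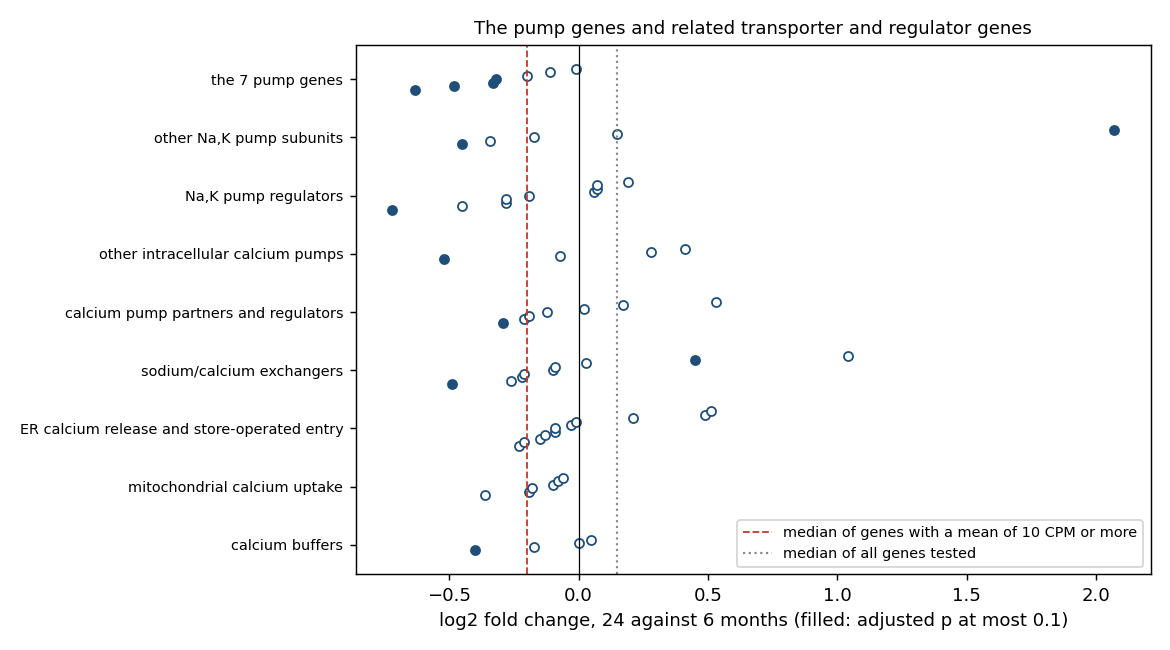
log2 fold change (24 against 6 months, TMM scaling) of the 7 pump genes and of 55 related genes in 8 lists, 1 point per gene, filled at an FDR of at most 10%. Dashed and dotted lines mark the medians of genes of at least 10 CPM (-0.20) and of all genes tested (0.15), and Atp1a4 (2.07) is the point farthest to the right.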

How the data were processed

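Cortex RNA-seq of 6 male mice was used, 1 library per mouse. The authors trimmed the reads (75 bases, single end) with Trim Galore 0.6.4, mapped them with STAR 2.7.3a to GRCm38 and deposited counts per gene from featureCounts (Subread 2.0.0), which is described with fractional counting of reads that map to several places, although 100% of the deposited counts were whole numbers. The authors also deposited TPM values computed from the counts and exonic lengths. No strand option is among the settings the authors list as departing from the defaults of featureCounts, so reads of a gene and of an overlapping antisense gene cannot be told apart.

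Members were found by symbol. Positions and lengths came from GENCODE vM21. Counts were tested with edgeR 4.0.16 in R 4.3.3: TMM, at least 10 counts over the 6 libraries, quasi-likelihood test, Benjamini-Hochberg adjustment over 32905 genes. The study used edgeR at 1% FDR without naming the test. SE is the absolute log2 fold change over the square root of F. TPM was used for levels and shares, with exact two-sided permutation tests over mice (scipy 1.17.1). The members, the lists, the 10% FDR rule and the tests were chosen with earlier results of these data known. The genes named were the members, and those of the lists that passed 10% FDR, had a mean of at least 50 TPM or marked the end of a range, of which some are given by counts alone and some are not reported here. For each member, the genes named as most alike are the 2 with the highest Pearson r of log2 CPM (prior count 2).

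Alternatives were RLE size factors, library totals, TMM factors from genes of at least 10 CPM, 2 other filters, the likelihood ratio and exact tests of edgeR, DESeq2 1.42.0 (5745 adjusted p-values not given, and left out of counts), each mouse left out in turn, counts in place of TPM for shares, and 2 other scalings of the levels. Fits without 1 mouse applied the count filter again. Depth, 29495379 to 36494240 counts, gave each member at least 622 counts per mouse.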

Additional observations from a re-analysis of the deposited data

How the results depend on the processing

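No paired analysis was possible because the ages were sampled from different mice (10, 11 and 17 against 2, 4 and 5). Of the 7 pumps, 4 were called at 10% FDR with TMM, 0 with library totals only, 0 with TMM factors from genes of at least 10 CPM, 0 with filterByExpr, 2 with the exact test, 2 with DESeq2, and 0 to 6 when each mouse was left out in turn. RLE size factors, the likelihood ratio test and the fit with no filter but 1 count each gave 4. The cause of the lost calls was not tested. The median log2 fold change of genes of at least 10 CPM was -0.20 with TMM and -0.01 with library totals only. It was 0.01 with TMM factors from genes of at least 10 CPM and -0.09 with filterByExpr. At 1% FDR, 0 of the 7 were called in every alternative.

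Over all genes, 0 were called at 1% FDR, against 42 with no filter but 1 count, 1703 with the likelihood ratio test, 1111 with the exact test, 227 with DESeq2 and 0 to 13 without 1 mouse. At 10% FDR 6040 were called (2741 lower, 3299 higher), against 4014 with no filter but 1 count, 1538 with filterByExpr, 3048 with DESeq2 (1708 lower, 1340 higher) and 0 to 7998 without 1 mouse. With library totals only, 318 were lower and 4121 higher, and with TMM factors from genes of at least 10 CPM, 280 were lower and 4520 higher. With no filter 1377 were lower and 2637 higher, with filterByExpr 430 and 1108, with the likelihood ratio test 2196 and 5302, and with the exact test 1941 and 4209.

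Of the 55 related genes, 8 were called, against 5 with library totals only, 5 with TMM factors from genes of at least 10 CPM, 5 with no filter but 1 count, 3 with filterByExpr, 5 with DESeq2 and 0 to 8 without 1 mouse. The Atp2b3 share differed by -0.745 percentage points in TPM and by -0.273 in counts not divided by length. The log2 ratio of mean Atp2a2 levels was -0.08 in TPM and -0.20 in CPM with TMM scaling. Without 1 mouse in turn, the difference in share ran from 1.32 to 3.16 percentage points for Atp2b1, -5.17 to -1.66 for Atp2b2, -0.965 to -0.544 for Atp2b3, 0.651 to 2.97 for Atp2b4, -4.4 to -1.54 for Atp1b1, 1.45 to 4.25 for Atp1b2 and -1.12 to -0.661 for Atp2a2. With 3 mice per age no permutation p can be below 0.1.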

Other observations

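The pattern of each pump over the 6 libraries was set beside that of 10028 genes with a mean of at least 10 CPM, by Pearson r of log2 CPM. The points share libraries, depth and age, and the values are descriptions. The pumps most alike were Atp2b2 and Atp2b3 (r = 0.98), and the least alike were Atp2b4 and Atp1b2 (r = -0.72). Genes with r of at least 0.95 numbered 740 for Atp1b1, 673 for Atp2b1, 662 for Atp2b2 and 650 for Atp2b3, but 182 for Atp2a2, 106 for Atp1b2 and 10 for Atp2b4. The genes closest to Atp2b1 were Tank (r = 0.998) and Uggt1 (0.997), those closest to Atp2b2 were Paqr8 and Vti1a (both 0.999), and those closest to Atp2b3 were Ap1g1 (0.999) and Tpp1 (0.998). Lmo4 (0.993) and Aup1 (0.976) were closest to Atp2b4, Zfp326 (0.998) and 1500009L16Rik (0.997) to Atp2a2, Sec62 and Vps4b (both 0.998) to Atp1b1, and Hr (0.996) and Zfp263 (0.995) to Atp1b2.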
